A study of Rattus norvegicus with 6 samples.

Results

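Endothelial cells line every vessel of the lung, and the genes that mark them were followed here by vessel type in Ahr-knockout (Ahr-KO) and wild-type (WT) rats. They were chosen by name as a list of 35 symbols, with earlier results of these data known. All 35 were found among the 19828 entries of the table. Of the 35, 16 mark endothelium in general, 8 mark capillaries, 1 marks arteries, 5 mark veins or activated endothelium and 5 mark lymphatic vessels. All 35 passed the filter on low values, a normalised read count of at least 1 in at least 3 libraries.

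The study profiled total lung RNA of Sprague-Dawley rats by bulk RNA-seq, with 3 Ahr-KO and 3 WT libraries. Both genotypes had received the Sugen-Hypoxia (SuHx) treatment and were labelled day 56, and no untreated lung was analysed here. Sugen is an inhibitor of VEGF receptors which also binds the aryl hydrocarbon receptor (AHR), and rats given it and then kept at low oxygen develop pulmonary arterial hypertension. The labels give neither the kind of Ahr allele nor the age or sex of the rats, nor whether each library came from its own animal. The p-values therefore speak of how far these samples spread, and part of that spread may be technical.

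A lung capillary holds a pair of endothelial cell types, named in the mouse as aerocytes, large thin cells spread over the gas exchange surface that express Car4 and Apln, and general capillary cells, which express Aplnr and repair the bed. Arteries and veins keep their identity through separate transcription programmes, with NR2F2 holding the venous one, and PROX1 sets lymphatic fate. Venules that receive inflammatory signals show selectins and the adhesion molecules ICAM1 and VCAM1, by which leukocytes roll, stick and leave the blood.

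Libraries are numbered 0, 1 and 2 within a genotype, as in the table, and the labels state no pairing by number. Their estimated depth was 14.2 to 23.6 M reads in Ahr-KO and 12.9 to 21.9 M reads in WT, with the library numbered 2 the shallowest in each genotype, and 1 read was worth a normalised count of 0.806 to 1.4. Ahr itself was read at 2399, 3923 and 3575 in the Ahr-KO libraries and at 2940.0, 2860.4 and 3395 in the WT libraries, a gene-level value that does not check the genotype because the position of the edit is not given in the sources used here. Cyp1a1, the classic AHR target, stood at 10.5, 0.83 and 1.36 in the Ahr-KO libraries and at 27085, 23512 and 37694 in the WT libraries. The targets Cyp1b1 and Ahrr were likewise lower in Ahr-KO (log2 fold change -6.18 ± 0.39 and -8.21 ± 0.24; limma adjusted p = 0.00052 and 9.4e-06). The dimerisation partner Arnt did not pass (log2 0.16 ± 0.14, adjusted p = 0.51).

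Endothelial genes did not move as a block. Capillary genes split, with Car4 and Prx more than 2-fold higher in Ahr-KO and Plvap lower. The fall of Plvap passed in only 1 of 6 fits with a library left out. The inflammatory adhesion genes Sele and Vcam1 and the scavenger receptor gene Stab1 fell, and most general markers did not pass the test. Of the 35 genes, 12 (34.3%) passed an adjusted p under 0.05, 4 higher and 8 lower in Ahr-KO. Over all 15386 tested genes the share was 10.8%, with 4.5% higher and 6.26% lower (limma-trend on log2(value + 1), Benjamini-Hochberg adjusted over all tested genes). These shares stand beside each count of genes past the threshold below. An unadjusted p under 0.05 was reached by 19 of the 35 genes and by 27.9% of all tested genes, the share beside which each count at that cut below stands. The Ahr-KO values lay wholly above the WT values for 8 of the 35 genes and wholly below them for 10, against 17% and 17.4% of all tested genes (34.3% either way). The median log2 fold change of the 35 was -0.08, beside 0.01 for all tested genes. With library totals made equal, the split over all genes was 449 higher and 1314 lower in place of 692 and 963, and 2 higher and 9 lower among the 35.

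Each call was made again with 1 library left out at a time. Car4, Prx, Sele, Vcam1 and Stab1 kept theirs in all 6 of these fits and Cd93 in 5. Of the 35 genes 7 passed without WT library 0, 6 without Ahr-KO library 1 and 5 without Ahr-KO library 2, where 705, 529 and 407 of all genes did. Pecam1, Emcn, Clec14a, Plvap, Nr2f2 and Prox1 each passed in at most 1, and are called marginal below. When all entries of the table were tested, with no filter on low values, Prx, Sele and Stab1 were the only ones of the 12 to pass, and Car4, Cd93 and Vcam1 missed the threshold (adjusted p = 0.07, 0.07 and 0.063). Fold changes are Ahr-KO over WT on the log2(value + 1) scale with SE, a stated fold is that difference without the log, and means are given with SD over 3 libraries. The lists of further endothelial genes, like the 35, were chosen with earlier results of these data known. They are named by up to 3 members with the lowest p past the threshold, and any other gene outside the 35 was named after its values were seen. Because lung tissue was measured in bulk, fewer cells of a type and less RNA per cell cannot be told apart in any value below.

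**Figure D1:**
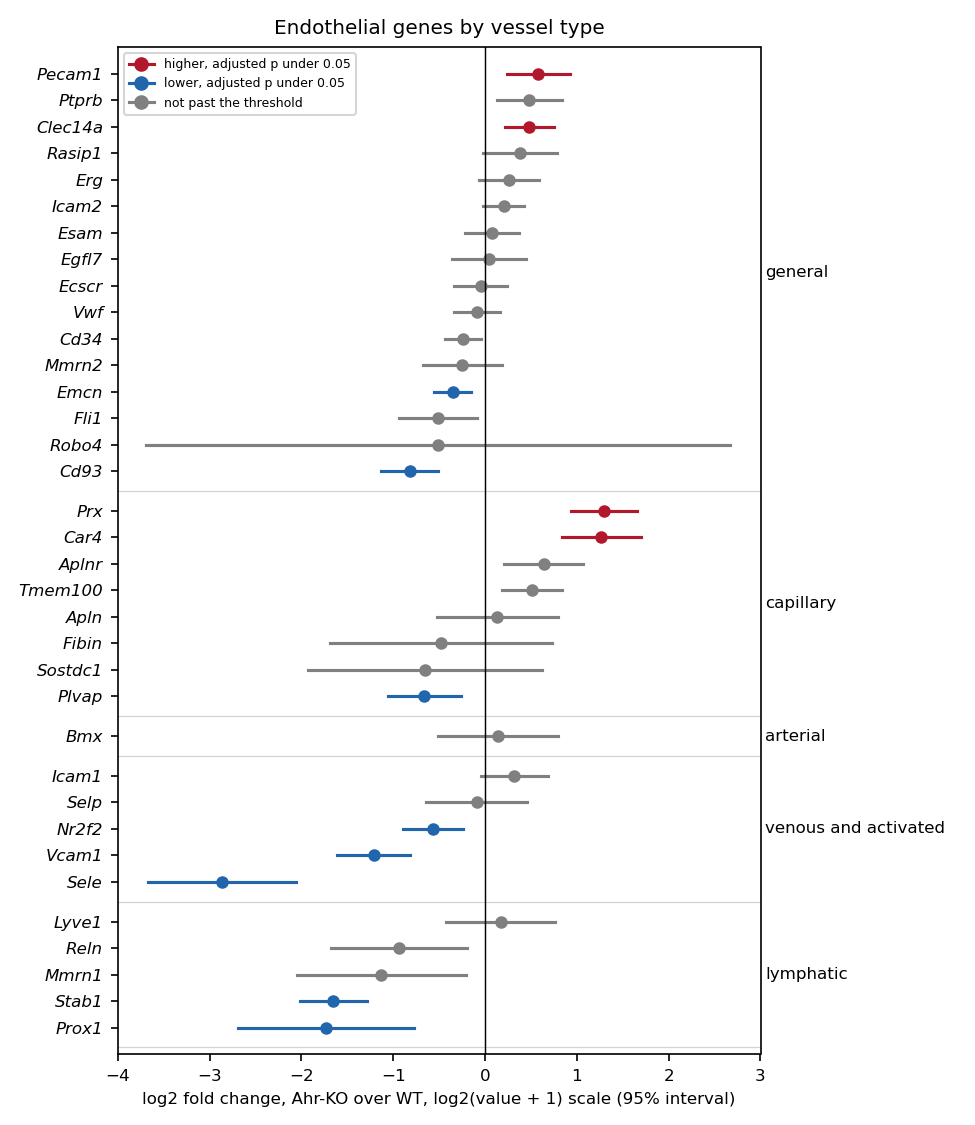
Log2 fold change of each of the 35 endothelial genes, Ahr-KO over WT on the log2(value + 1) scale, grouped by vessel type. Points are the limma-trend estimates from 3 libraries per genotype, bars their 95% intervals, and colour marks an adjusted p under 0.05. The 16 general genes lie on both sides of 0, Prx and Car4 stand furthest to the right, and Sele stands furthest to the left.

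The DNA upstream of the annotated start of the 5 genes that passed in each of those 6 fits is shown because these carry the firmest differences. The sequences are from RefSeq on the GRCr8 build, which is not the rn6 build named in the submitters' processing notes. Each runs 5′ to 3′ on the gene's own strand over the 250 bases that end at the base before the start. Capitals mark the motifs searched on both strands, which were GCGTG (the core of the site that AHR and ARNT bind), AGGAAG (a common site of ETS factors such as ERG and FLI1), TATAAA (the TATA box) and the NF-kappaB consensus.
Car4, chr10:70325108-70325357, plus strand: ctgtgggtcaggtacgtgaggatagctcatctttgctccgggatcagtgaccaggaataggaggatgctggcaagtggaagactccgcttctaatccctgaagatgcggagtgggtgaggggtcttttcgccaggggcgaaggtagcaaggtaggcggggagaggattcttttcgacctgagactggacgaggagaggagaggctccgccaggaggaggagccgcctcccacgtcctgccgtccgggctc
Prx, chr1:91914171-91914420, plus strand: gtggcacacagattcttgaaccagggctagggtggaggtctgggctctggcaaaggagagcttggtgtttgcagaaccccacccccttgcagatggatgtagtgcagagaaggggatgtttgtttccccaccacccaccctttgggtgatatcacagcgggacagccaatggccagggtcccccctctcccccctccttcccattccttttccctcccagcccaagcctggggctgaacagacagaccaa
Sele, chr13:78936264-78936513, plus strand: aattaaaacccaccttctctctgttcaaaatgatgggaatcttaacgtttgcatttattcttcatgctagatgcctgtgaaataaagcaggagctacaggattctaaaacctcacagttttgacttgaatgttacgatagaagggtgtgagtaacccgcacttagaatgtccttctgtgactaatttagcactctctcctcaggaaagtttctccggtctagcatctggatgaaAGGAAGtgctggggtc
Vcam1, chr2:206742784-206743033, minus strand: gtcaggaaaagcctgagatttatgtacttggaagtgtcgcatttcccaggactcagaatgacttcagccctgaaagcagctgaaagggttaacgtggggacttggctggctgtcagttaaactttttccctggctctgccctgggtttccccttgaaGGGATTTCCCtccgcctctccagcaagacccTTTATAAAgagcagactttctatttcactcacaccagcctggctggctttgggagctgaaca
Stab1, chr16:6367360-6367609, minus strand: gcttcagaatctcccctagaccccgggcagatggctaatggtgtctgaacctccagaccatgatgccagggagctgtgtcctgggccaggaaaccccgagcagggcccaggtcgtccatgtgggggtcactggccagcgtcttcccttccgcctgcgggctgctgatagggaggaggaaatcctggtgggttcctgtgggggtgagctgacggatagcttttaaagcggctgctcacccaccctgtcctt
Vcam1 held an NF-kappaB match and, further on, TATAAA on both strands in letters that overlap each other. Sele held an AGGAAG close to the annotated start but no match of NF-kappaB, GCGTG or TATAAA. The windows of Car4, Prx and Stab1 held none of the 4 motifs. No match of a motif overlapped one of another motif in these 5 windows. RefSeq windows were found for 20 of the 35 genes, and 10 of these held AGGAAG, 3 GCGTG, 4 TATAAA and 1 NF-kappaB. Counted by window, these genes had 23, of which 43.5% held AGGAAG, 13% GCGTG, 17.4% TATAAA and 4.35% NF-kappaB. In windows of the same length before all 33469 RefSeq starts, AGGAAG was present in 29.5%, GCGTG in 25.9%, TATAAA in 12.9% and NF-kappaB in 5.18%. The 3 genes with GCGTG were Bmx, Icam1 and Reln, none of which passed the test of expression. These matches describe letters in a short window, not binding.

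General endothelial genes showed no common direction. Of the 16, 2 rose and 2 fell, both pairs by less than 2-fold, and 12 did not pass, with a median log2 fold change of 0.00. Summed over the list, normalised counts ranged from 104779 to 113312 in Ahr-KO libraries and from 97406 to 100534 in WT libraries. Neither these sums nor those of the marker lists below were divided by the library total of normalised counts. That total was larger in every Ahr-KO library than in every WT library. The gap between the sums of this list therefore does not show a larger share of the total in Ahr-KO. Vwf, the clotting factor stored in endothelial granules, stood at 24954, 20745 and 22062 in Ahr-KO libraries 0, 1 and 2 and at 23663, 24395 and 23567 in WT libraries 0, 1 and 2. Its groups overlapped, and the 95% interval of its log2 fold change was -0.34 to 0.17.

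Cd93 gave the firmest difference of this class. It encodes a C-type lectin of the endothelial surface that binds the matrix protein multimerin 2. Cd93 had 6248, 6354 and 5356 in the Ahr-KO libraries, against 9011, 10516 and 12387 in the WT libraries. All 3 Ahr-KO values lay below all 3 WT values, a 1.77-fold fall (log2 -0.82 ± 0.13, adjusted p = 0.012). Only the fit without Ahr-KO library 2 ended that call among those that left out 1 library (adjusted p = 0.058). Clec14a, a second lectin of that family with the same ligand, stood at 15483, 14297 and 12582 in Ahr-KO and at 10995, 9260.3 and 10022 in WT, 1.4-fold higher with separate groups (log2 0.48 ± 0.11, adjusted p = 0.037, up to 0.11 with a library dropped). Mmrn2, which encodes the shared ligand, did not pass, at 1836, 1969 and 1832 in Ahr-KO and 1858, 1927 and 3087 in WT, where library 2 stood above the other two (log2 -0.25 ± 0.18, adjusted p = 0.43). The 2 receptor genes thus stood in opposite directions, with the call of Clec14a marginal, while their ligand gene overlapped between genotypes.

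Pecam1, the junctional adhesion molecule CD31, had 10751, 8739 and 9943 in Ahr-KO libraries and 6306, 7972 and 5548 in WT libraries (log2 0.58 ± 0.15, adjusted p = 0.044). Its groups did not overlap. Emcn, a sialomucin that keeps leukocytes from sticking, had 1860.1, 1734 and 1772 in Ahr-KO and 2390.2, 2373 and 2102 in WT, a fall of 1.28-fold with separate groups (log2 -0.35 ± 0.09, adjusted p = 0.042). Pecam1, Emcn and Clec14a were marginal, and each missed the threshold when WT library 0 or any single Ahr-KO library was dropped. Pecam1 also missed it without WT library 2, Emcn without WT library 1 and Clec14a when either of these was dropped (highest adjusted p = 0.14, 0.14 and 0.11). The rises of Pecam1 and Clec14a also did not pass after quantile normalisation (adjusted p = 0.091 and 0.13) or with equal library totals (adjusted p = 0.069 and 0.073).

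Among general genes that did not pass, Ptprb, the phosphatase that acts on TIE2 and VE-cadherin, had 30089.9, 27078 and 25185 in Ahr-KO and 18448, 16822 and 24193 in WT (log2 0.48 ± 0.15, adjusted p = 0.087). Its groups did not overlap, the WT library 2 being the closest to Ahr-KO, and without that library it passed (adjusted p = 0.022). The ETS factor gene Fli1 stood at 780.2, 619 and 671 in Ahr-KO and 916, 1289 and 790.4 in WT (log2 -0.51 ± 0.18, adjusted p = 0.12). Its partner in endothelial transcription, Erg, stood at 1673, 1612 and 1715 in Ahr-KO and 1353, 1152 and 1709 in WT (log2 0.27 ± 0.14, adjusted p = 0.27). Without WT library 2 both passed, Erg higher and Fli1 lower (adjusted p = 0.037 and 0.048). Without both libraries numbered 2, Ptprb passed (0.048), and Erg and Fli1 did not (0.098 and 0.14). Cd34, a sialomucin of endothelium and of blood progenitors, averaged 873 ± 23.4 in Ahr-KO and 1031 ± 36.0 in WT, with separate groups (log2 -0.24 ± 0.09, adjusted p = 0.11). It passed as lower with equal library totals (adjusted p = 0.0498).

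The junction gene Icam2 averaged 2947 ± 296 in Ahr-KO and 2555 ± 105 in WT, also with separate groups (adjusted p = 0.22). The other general genes overlapped between genotypes. These were the RAP1 effector gene Rasip1 (log2 0.38 ± 0.18), the secreted factor gene Egfl7 (0.04 ± 0.17), the junction gene Esam (0.08 ± 0.13) and the surface protein gene Ecscr (-0.05 ± 0.12), with adjusted p from 0.20 to 0.90. Robo4, the endothelial roundabout receptor, was low, at 2.42, 22.3 and 0 in Ahr-KO and 13.0, 15.6 and 0 in WT. A joint entry of Robo4 with a second locus held 282, 296 and 371 in Ahr-KO and 353, 263 and 295 in WT, and since reads of Robo4 may stand there its own value is uncertain.

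The 25 further general endothelial genes were higher in part, with 4 past the threshold upwards, 1 downwards and 20 not past it (median log2 0.32). Cyyr1 had 18446, 19225 and 14796 in Ahr-KO libraries and 8849, 7059 and 8655 in WT libraries, a 2.13-fold rise with no overlap (adjusted p = 0.0059). Tek, which encodes the angiopoietin receptor TIE2, had 19401, 16997 and 13519 in Ahr-KO and 8726, 7778 and 10364 in WT (1.85-fold, adjusted p = 0.016). Exoc3l2, an exocyst-like gene of endothelium, fell to 20.1, 66.1 and 53.2 in Ahr-KO, against 452, 252 and 484 in WT, 8.98-fold lower (log2 -3.17 ± 0.45, adjusted p = 0.0079). Cyyr1 and Exoc3l2 passed with any single library left out. Tek did not pass when WT library 0 was dropped, nor when Ahr-KO library 1 was (highest adjusted p = 0.059). Ushbp1 (1.89-fold higher, adjusted p = 0.013) missed it when either Ahr-KO library 1 or 2 was dropped (0.061). The scaffold gene Shank3 (1.57-fold higher, adjusted p = 0.047) passed in 1 of 6 such fits, the one without WT library 1 (highest 0.16). It passed neither after quantile normalisation (0.074) nor with equal library totals (0.069).

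Capillary genes held the 2 largest log2 rises of the 35. Of 8, 2 rose, 1 fell and 5 did not pass, with a median log2 fold change of 0.32. Car4, the membrane-bound carbonic anhydrase of the gas exchange surface, had 2527, 3588 and 2794 in Ahr-KO libraries 0, 1 and 2, against 1319.5, 1458 and 947 in WT libraries 0, 1 and 2. Every Ahr-KO value exceeded every WT value, and the mean was 2969.6 ± 552 against 1241 ± 264 (n = 3 each), a 2.4-fold rise (log2 1.26 ± 0.19, adjusted p = 0.0091). Prx encodes periaxin, a PDZ protein first described in Schwann cells and present in lung capillary endothelium. It had 8499, 6643 and 6866 in Ahr-KO and 3319.8, 3315 and 2382 in WT, 2.45-fold higher (log2 1.29 ± 0.16, adjusted p = 0.0054). Its lowest Ahr-KO value was above its highest WT value. Leaving out single libraries moved the log2 fold change of Car4 between 1.08 and 1.39 and that of Prx between 1.14 and 1.38.

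Neither gene of the apelin pair passed. Apln, the peptide ligand that marks aerocytes in the mouse, had 1179.9, 2563 and 1788 in Ahr-KO and 1515, 2113 and 1280.0 in WT, with full overlap (log2 0.13 ± 0.28, 95% interval -0.52 to 0.79, adjusted p = 0.80). Aplnr, its receptor on general capillary cells, had 3957, 4944 and 3729.6 in Ahr-KO and 3384, 2770.1 and 2068 in WT, with all Ahr-KO values above the WT ones (log2 0.64 ± 0.19, adjusted p = 0.067). It passed without WT library 0 (0.048). Tmem100, a membrane protein gene induced by BMP9 and BMP10 in endothelium, had 10560.3, 12260.2 and 10007 in Ahr-KO and 8521, 8324 and 6296 in WT, again without overlap (log2 0.51 ± 0.14, adjusted p = 0.057).

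Plvap ran the other way. It encodes the protein that forms the diaphragms of endothelial fenestrae and caveolae. Its values were 16845, 15844 and 17899 in Ahr-KO libraries and 29499.6, 31532 and 20316 in WT libraries, 1.58-fold lower with separate groups (log2 -0.66 ± 0.17, adjusted p = 0.047). The call was marginal and passed in 1 of the 6 fits with a library left out, the one without WT library 2 (log2 -0.86, adjusted p = 0.0077; highest 0.14). WT library 2 was the lowest WT library for each of the 8 capillary genes, so for Plvap it lay nearest to Ahr-KO and for Car4 and Prx furthest from it.

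The remaining capillary genes were uneven within genotypes. Fibin, a secreted factor gene of aerocytes, had 1640.1, 719 and 628 in Ahr-KO and 2066, 1730.4 and 565 in WT. Libraries 0 of Ahr-KO and 0 and 1 of WT were high and the others low, so the groups overlapped (log2 -0.48 ± 0.52, 95% interval -1.69 to 0.72). Sostdc1, an antagonist of BMP and WNT ligands, was low throughout, at 7.25, 20.7 and 8.18 in Ahr-KO and 24.0, 26.3 and 8.39 in WT (adjusted p = 0.49). The groups overlapped, and the 95% interval of the log2 fold change was wide, from -1.93 to 0.62.

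**Figure D2:**
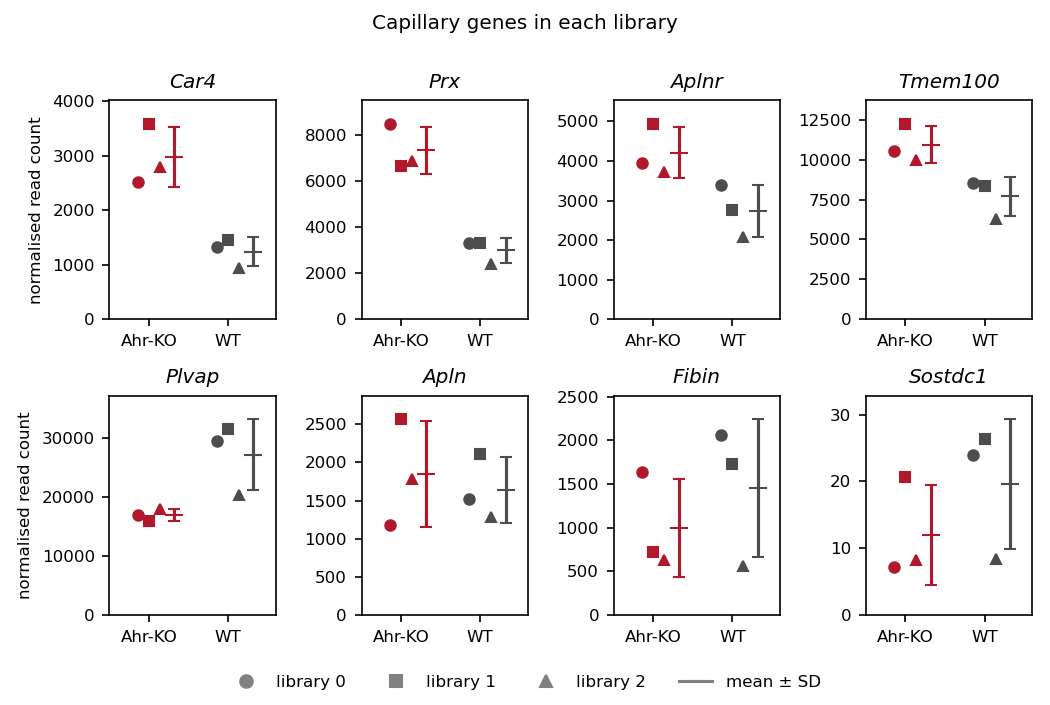
Normalised read count of the 8 capillary genes in each library, Ahr-KO at the left of each panel and WT at the right, with mean and SD (n = 3 each). Symbols give the library number, by which the labels state no pairing between genotypes, and every axis starts at 0. Car4, Prx, Aplnr and Tmem100 lie wholly higher in Ahr-KO and Plvap wholly lower.

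Further capillary genes, a list chosen with earlier results of these data known, held rises. Of 13 tested, 4 rose, none fell and 9 did not pass (median log2 0.43; 7 of 13 at an unadjusted p under 0.05, beside 27.9% of all tested genes). Kit, a receptor kinase gene that marks general capillary cells in the mouse and is also expressed by mast cells, had 3641, 3116 and 3185 in Ahr-KO and 1305, 809.7 and 1105 in WT, 3.14-fold higher (log2 1.65 ± 0.17, adjusted p = 0.0034). It passed with any single library left out. Gpihbp1, which carries lipoprotein lipase to the capillary lumen, had 1086, 1245 and 1119 in Ahr-KO, against 274, 547 and 147 in WT, 4.08-fold higher (adjusted p = 0.02). Emp2, a membrane protein gene shared by aerocytes and alveolar type 1 cells, had 34888, 38261 and 38480.0 in Ahr-KO and 19963, 24529.7 and 24146 in WT (1.63-fold, adjusted p = 0.015). Both passed when WT library 1 or 2 or Ahr-KO library 0 was dropped and missed the threshold otherwise (highest adjusted p = 0.084 and 0.065). The neurotrophin receptor gene Ntrk2 rose 3.18-fold (adjusted p = 0.03). It missed the threshold when WT library 1 or any single Ahr-KO library was dropped (highest adjusted p = 0.10). Ednrb, the endothelin receptor gene that marks aerocytes in the mouse, had 3053, 2412 and 2416 in Ahr-KO and 1787, 2148 and 2157 in WT, separate but not past the threshold (log2 0.37 ± 0.13, adjusted p = 0.10).

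Markers of alveolar type 1 cells, the epithelium that shares the wall with these capillaries, rose in part. Of 6, 3 rose and 3 did not pass, with a summed normalised count of 157766 to 173170.0 in Ahr-KO and 96687 to 121201 in WT, and none of the 6 was at 0 in any library. The 3 that rose were Hopx (log2 1.07 ± 0.14, adjusted p = 0.0071), Rtkn2 (0.88 ± 0.18, 0.021) and Ager (0.69 ± 0.16, 0.034). Hopx passed with any single library left out. Rtkn2 and Ager each passed in 2 of those 6 fits, that without Ahr-KO library 0 and that without WT library 2 (Rtkn2) or 1 (Ager), with a highest adjusted p of 0.094 and 0.12. Ager also did not pass after quantile normalisation (0.064). Whether they share in the rise of Car4, Prx or Emp2 was not tested. Schwann cell markers, listed because of Prx, had 0 of 6 past the threshold and 3 at an unadjusted p under 0.05 by limma, beside 27.9% of all tested genes. They had a summed count of 8171 to 9479 in Ahr-KO and 7218 to 8151 in WT, most of it Pmp22. Their part in the rise of Prx was not tested.

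Arterial genes gave no common direction. Bmx, a TEC-family kinase gene of arterial endothelium, had 112, 76.9 and 61.4 in Ahr-KO and 68.0, 60.8 and 95.1 in WT, overlapping fully (log2 0.14 ± 0.28, 95% interval -0.52 to 0.80, adjusted p = 0.79). Of 11 further arterial genes, 1 rose, 3 fell and 7 did not pass (median log2 0.09). Sema3g, a secreted semaphorin gene, had 10664, 12212 and 13000.4 in Ahr-KO and 6631, 6421 and 6102 in WT, 1.87-fold higher (log2 0.90 ± 0.10, adjusted p = 0.0043). Gja5, which encodes connexin 40 of arterial gap junctions, had 1364, 1492 and 1514 in Ahr-KO and 2884, 3435 and 2379 in WT, 1.97-fold lower (log2 -0.98 ± 0.14, adjusted p = 0.0077). Cxcl12, a chemokine gene of arterial and stromal cells, averaged 1998 ± 222 in Ahr-KO and 3814 ± 442 in WT (log2 -0.93 ± 0.12, adjusted p = 0.006). These 3 kept their calls in each fit with a library left out and their groups did not overlap. The WNT modulator gene Dkk2 was 2.44-fold lower (adjusted p = 0.036), passed in 1 such fit, without Ahr-KO library 0 (highest 0.11), and did not pass after quantile normalisation (0.063). The Notch ligand gene Dll4 and the ephrin gene Efnb2 overlapped between genotypes (log2 0.19 ± 0.13 and 0.11 ± 0.15).

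Venous and activated genes fell in 3 of 5 cases and none rose (median log2 -0.57). Sele had the largest log2 fold change of the 35. It encodes E-selectin, which cytokines induce on endothelium and on which leukocytes roll. Its values were 16.9, 43.0 and 21.8 in Ahr-KO libraries 0, 1 and 2, against 197, 154 and 225 in WT libraries 0, 1 and 2. The highest Ahr-KO value was well under the lowest WT value, with means of 27.2 ± 13.8 and 192 ± 35.6 (n = 3 each). The fall was 7.29-fold (log2 -2.87 ± 0.35, 95% interval -3.67 to -2.06, adjusted p = 0.0054), and between -3.24 and -2.59 on the log2 scale with single libraries left out.

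Vcam1, the adhesion molecule that binds the integrin VLA-4 on lymphocytes and monocytes, had 681, 795 and 595 in Ahr-KO and 2033, 1382 and 1425 in WT. No Ahr-KO value reached the WT range, and the mean was 690.3 ± 100.5 against 1614 ± 364, 2.31-fold lower (log2 -1.21 ± 0.17, adjusted p = 0.0083). Without both libraries numbered 2, Sele and Vcam1 narrowly missed the threshold (adjusted p = 0.052 and 0.0501) at log2 fold changes of -2.64 and -1.19. Nr2f2, the venous transcription factor gene COUP-TFII, which stromal cells and lymphatic endothelium also express, had 491, 501 and 539 in Ahr-KO and 929.7, 692 and 670.1 in WT. Its groups were separate and the fall was 1.48-fold (log2 -0.57 ± 0.14, adjusted p = 0.043). This call passed in 1 of 6 fits with a library left out, that without WT library 2 (highest adjusted p = 0.12).

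The other adhesion genes of the class did not follow. Icam1, which binds the leukocyte integrin LFA-1 and is also abundant on alveolar type 1 cells, had 9643, 14816 and 13214 in Ahr-KO and 9408, 10327 and 10005 in WT. Ahr-KO libraries 1 and 2 were above all WT values and Ahr-KO library 0 within them (log2 0.32 ± 0.16, adjusted p = 0.23), and without Ahr-KO library 0 it passed as higher (0.035). Selp, the P-selectin gene of endothelial and platelet granules, had 102, 131 and 127 in Ahr-KO and 173, 97.7 and 122 in WT, overlapping (log2 -0.09 ± 0.24, 95% interval -0.65 to 0.46, adjusted p = 0.84). Of 5 tested platelet markers, none passed by limma (2 at an unadjusted p under 0.05, both lower, beside 27.9% of all tested genes). Their list summed to 310.0 to 413 in Ahr-KO and 297 to 502 in WT, with Gp5 at 0 in all 6 libraries.

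**Figure D3:**
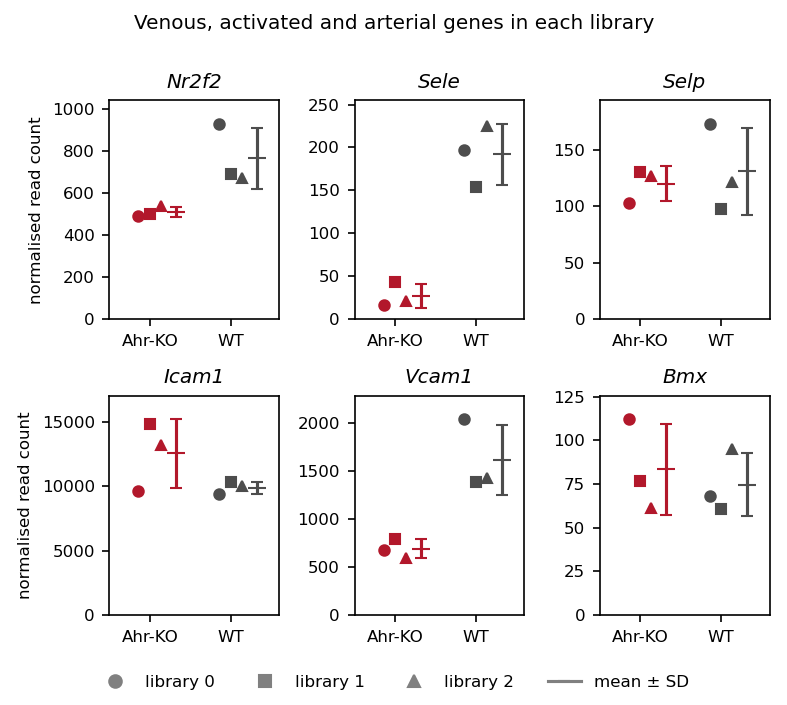
Normalised read count of the 5 venous and activated genes and of the arterial gene Bmx in each library, Ahr-KO at the left and WT at the right of each panel, with mean and SD (n = 3 each). Every axis starts at 0, and symbols give library numbers, by which the labels state no pairing. Nr2f2, Sele and Vcam1 are separate and lower in Ahr-KO, while Selp, Icam1 and Bmx overlap.

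Most leukocyte markers were lower in Ahr-KO, as were Sele and Vcam1. Of 8 general leukocyte markers 7 fell, and the list summed to 9132 to 11211 in Ahr-KO and 12446 to 14834 in WT, with no marker at 0. Ms4a1, Cd52 and Coro1a passed with any single library left out, and Ptprc, Cd3e and Cd3d passed in at most 2 of 6 such fits. Cd3d also did not pass after quantile normalisation (0.11) or with limma-voom (0.0506). Csf1r, the eighth, did not pass and stood the other way, at 5505, 5590.0 and 6089.6 in Ahr-KO and 5022, 4908 and 5036 in WT with separate groups (log2 0.20 ± 0.08, adjusted p = 0.16). The part of leukocytes in the falls of Sele and Vcam1 was not tested. Of 11 further venous genes, 2 fell and 9 did not pass (median log2 -0.02), so that 18.2% passed, beside 10.8% of all tested genes. Vegfc, the lymphatic growth factor gene, had 275, 236 and 231 in Ahr-KO and 515, 493 and 343 in WT (1.79-fold lower, adjusted p = 0.026), and the adhesion gene Amigo2 had 2052, 2092 and 2038 in Ahr-KO and 4252, 4589.9 and 2556 in WT (1.79-fold lower, adjusted p = 0.039). Vegfc passed when WT library 2 or Ahr-KO library 0 was dropped but with none of the other 4 dropped (highest adjusted p = 0.10), and Amigo2 passed in 1 such fit, without WT library 2 (highest 0.13). The venous receptor gene Ephb4 and the venular chemokine receptor gene Ackr1 overlapped (log2 0.04 ± 0.11 and 0.02 ± 0.27).

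Genes of high endothelial venules, through which lymphocytes enter lymphoid tissue, had 0 of 4 tested past the threshold by limma (1 at an unadjusted p under 0.05, beside 27.9% of all tested genes). That gene was the L-selectin ligand Glycam1, with 32.2, 0 and 8.18 in Ahr-KO and 97.0, 76.4 and 88.1 in WT, all Ahr-KO values below the WT ones (log2 -3.70 ± 1.08, adjusted p = 0.067). Of 6 genes of systemic and peribronchial vessels 1 fell, Ebf1, a transcription factor gene which B cells and pericytes also express, with 105, 70.2 and 95.5 in Ahr-KO and 169.9, 158 and 194 in WT (adjusted p = 0.026). As with Vegfc, it passed when WT library 2 was dropped and when Ahr-KO library 0 was, and missed the threshold with any other library dropped (highest adjusted p = 0.078).

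Lymphatic genes fell in 2 of 5 cases, none rose, and 3 did not pass (median log2 -1.13). Stab1, which encodes the scavenger receptor stabilin-1 of lymphatic and sinusoidal endothelium and of some macrophages, had the lowest adjusted p of the 35 genes. It stood at 788, 663 and 889 in Ahr-KO libraries 0, 1 and 2, against 1978, 2805 and 2605 in WT libraries 0, 1 and 2. The genotypes were far apart, with means of 780.3 ± 113 and 2463 ± 432 (n = 3 each), a 3.14-fold fall (log2 -1.65 ± 0.16, 95% interval -2.02 to -1.28, adjusted p = 0.0031). Of 7 tested macrophage markers 2 fell, C1qa and C1qb (log2 -1.91 ± 0.18 and -1.86 ± 0.27, adjusted p = 0.0031 and 0.0086), and 5 did not pass. That list summed to 9183 to 15062 in Ahr-KO and 13699 to 16907 in WT, with Marco at 0 in all 6 libraries, and its part in the fall of Stab1 was not tested.

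Prox1, the transcription factor gene that defines lymphatic endothelium, was low in every library, at 8.87, 11.6 and 6.82 in Ahr-KO and 40.0, 18.1 and 44.8 in WT. Its groups were separate, with WT library 1 the nearest to Ahr-KO (log2 -1.74 ± 0.42, adjusted p = 0.038). The call was marginal and passed in 1 of 6 fits with a library left out, that without WT library 1 (highest adjusted p = 0.13). It did not pass after quantile normalisation (0.071) or with limma-voom (0.068).

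The remaining 3 lymphatic genes were set apart by Ahr-KO library 0. Mmrn1, which encodes the secreted protein multimerin 1, had 989.7, 363 and 297 in Ahr-KO and 1071, 904 and 1162 in WT. Ahr-KO library 0 lay within the WT range and the other two well below it (log2 -1.13 ± 0.40, adjusted p = 0.11), and without that library Mmrn1 passed as lower (log2 -1.66, adjusted p = 0.0053). Reln, the gene of the secreted glycoprotein reelin, did the same, at 319, 142 and 132 in Ahr-KO and 364, 303 and 385 in WT (log2 -0.94 ± 0.32, adjusted p = 0.10; without Ahr-KO library 0, log2 -1.34 and adjusted p = 0.0099). Lyve1, the hyaluronan receptor gene of lymphatic vessels and of tissue macrophages, had 9884, 4661 and 5076 in Ahr-KO and 5620.0, 5106 and 5679 in WT. Ahr-KO library 0 was the highest of all 6 and the other two lay below all WT values. The log2 fold change of Lyve1 was 0.17 ± 0.26 (adjusted p = 0.71), and without Ahr-KO library 0 it was -0.17 (0.35).

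Macrophage markers differed in that library too, in both directions relative to WT. Mrc1, the mannose receptor gene, had 6383, 2033 and 2417 in Ahr-KO and 3351, 4362 and 6116 in WT, and the haemoglobin scavenger receptor gene Cd163 had 321, 50.4 and 65.5 in Ahr-KO and 40.0, 32.8 and 127 in WT. Both were highest in Ahr-KO library 0, as was Lyve1, and neither passed (adjusted p = 0.47 and 0.49). C1qa, C1qb, Cd68 and Adgre1 of the same list were higher in Ahr-KO library 0 than in the other Ahr-KO libraries but below all WT libraries, and Csf1r was lowest in it among Ahr-KO libraries. Their part in the high Lyve1 of that library was not tested. Stab1 and Prox1 were not high in it. Ahr-KO library 0 stood apart in other lists too. The mean log2(value + 1) in Ahr-KO libraries 0, 1 and 2 was 11.54, 11.08 and 11.11 for fibroblast markers. For leukocyte markers it was 7.65, 7.13 and 7.29. Alveolar type 1 markers were not highest in library 0, at 14.1, 14.25 and 14.19.

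**Figure D4:**
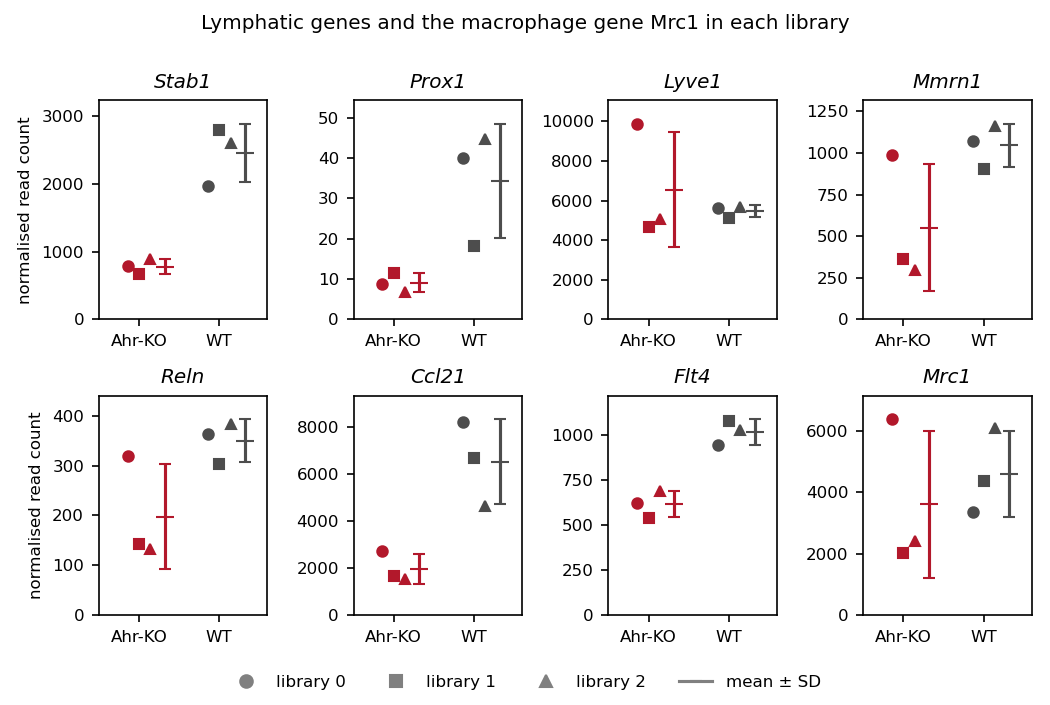
Normalised read count of the 5 lymphatic genes, of the further lymphatic genes Ccl21 and Flt4 and of the macrophage gene Mrc1 in each library, Ahr-KO at the left and WT at the right of each panel, with mean and SD (n = 3 each). Every axis starts at 0. Circles mark library 0, which in Ahr-KO stands above libraries 1 and 2 for Lyve1, Mmrn1, Reln, Ccl21 and Mrc1.

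Further lymphatic genes were lower in part, with 4 of 9 tested falling, none rising and 5 not past the threshold (median log2 -0.72). Flt4, the receptor for VEGF-C that lymphatic growth depends on, had 626, 542 and 689 in Ahr-KO and 945, 1083 and 1031 in WT. Its groups were separate (1.65-fold lower, log2 -0.72 ± 0.12, adjusted p = 0.012), and it passed with any single library left out. Ccl21, the chemokine by which lymphatic vessels draw in dendritic cells and lymphocytes, had 2708, 1643 and 1547 in Ahr-KO and 8218, 6698 and 4622 in WT (3.33-fold lower, adjusted p = 0.0096), and missed the threshold without Ahr-KO library 2 (0.051). The guidance gene Sema3d (1.95-fold lower, adjusted p = 0.039) passed in 1 such fit, without Ahr-KO library 0 (highest 0.14). The transcription factor gene Maf was 2.21-fold lower (adjusted p = 0.042), passed when WT library 2 was dropped and when Ahr-KO library 0 was (highest 0.15) and did not pass after quantile normalisation (0.068). Pdpn, a lymphatic marker that alveolar type 1 cells express strongly in lung, had 12786, 14902 and 14558 in Ahr-KO and 9715, 12900.1 and 8834 in WT, overlapping (log2 0.44 ± 0.15, adjusted p = 0.10). Foxc2, a lymphatic valve factor gene, was low, at 15.3, 9.09 and 6.82 in Ahr-KO and 15.0, 18.1 and 21.0 in WT (adjusted p = 0.21).

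Of a list of 15 ETS, SOX, KLF, GATA and related transcription factor genes, which holds Erg and Fli1 but neither Nr2f2 nor Prox1, 0 passed by limma-trend, 6 had an unadjusted p under 0.05 (27.9% of all tested genes) and the median log2 fold change was 0.01. The nearest were Gata2, with 5099, 4023 and 5049 in Ahr-KO and 3338, 3407 and 2045 in WT (log2 0.72 ± 0.20, adjusted p = 0.061), and Sox7, with 1788, 2621 and 1454 in Ahr-KO and 868, 1428 and 892 in WT (log2 0.87 ± 0.25, adjusted p = 0.067). Both had all Ahr-KO values above all WT values. Klf2, a gene induced by blood flow, had 1567, 1145 and 1589 in Ahr-KO and 2730.0, 1946 and 667 in WT, where the libraries alone spread wider than all of Ahr-KO (log2 -0.10 ± 0.45, adjusted p = 0.91).

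**Figure D5:**
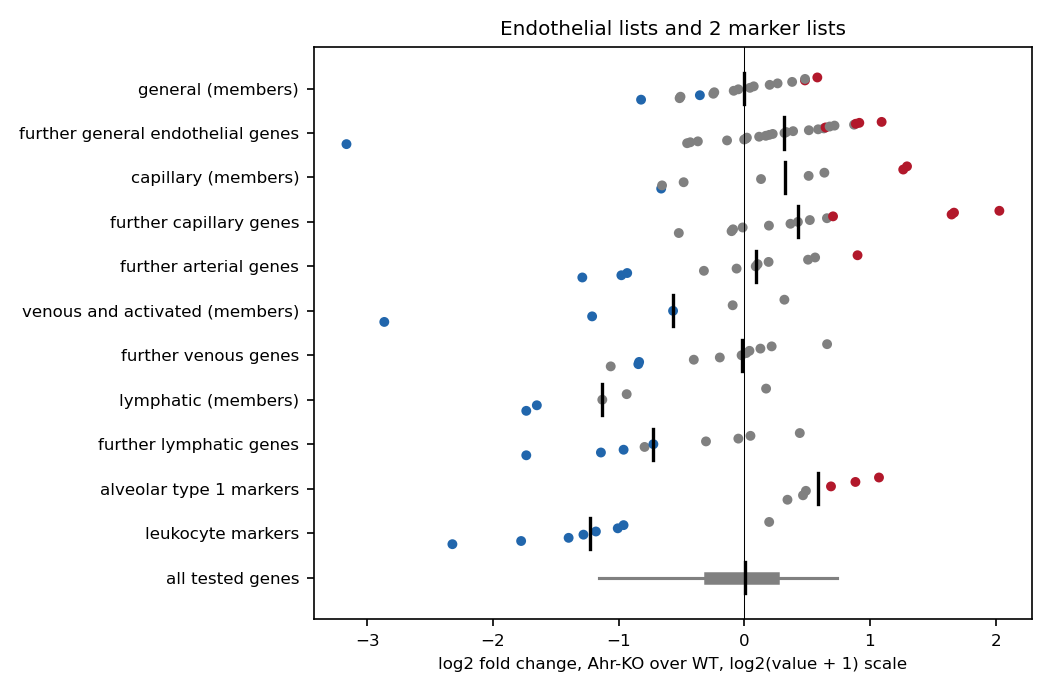
Log2 fold change, Ahr-KO over WT on the log2(value + 1) scale, of single genes in endothelial, alveolar type 1 and leukocyte lists. Bmx and the lists of high endothelial venule, systemic and peribronchial vessel, and transcription factor genes have no row. Each point is a gene, red where higher and blue where lower at an adjusted p under 0.05, the black tick is the list's median, and the bottom row gives the 5th, 25th, 50th, 75th and 95th percentiles of all 15386 tested genes (bar from the 25th to the 75th, line from the 5th to the 95th). Medians lie at 0.43 for further capillary genes, -1.13 for lymphatic genes and -1.23 for leukocyte markers.

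Other cells of the vessel wall and the lung stood as follows. Of 11 smooth muscle and pericyte markers 0 passed by limma (3 at an unadjusted p under 0.05, beside 27.9% of all tested genes). The list summed to 37285 to 55734 in Ahr-KO and 30682 to 38781 in WT. Fibroblast markers had 2 of 7 lower, Col1a1 and Col3a1 (log2 -1.38 ± 0.14 and -0.65 ± 0.13), and summed to 31710.0 to 40482 in Ahr-KO and 49116 to 60862 in WT. Of 6 alveolar type 2 markers and 4 general epithelial markers none passed by limma, with median log2 fold changes of 0.38 and 0.35. Of each list 3 had an unadjusted limma p under 0.05, beside 27.9% of all tested genes. Mesothelial markers had 1 of 5 lower, Gpm6a (log2 -0.54 ± 0.12, adjusted p = 0.03). Col1a1 passed with any single library left out, whereas Col3a1 and Gpm6a each passed in 2 of 6 such fits, namely with Ahr-KO library 0 dropped and with WT library 2 dropped (highest adjusted p = 0.075 and 0.11). The part of these cells in the endothelial values was not tested.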

How the data were processed

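Total lung RNA of SuHx rats was sequenced in 3 Ahr-KO and 3 WT samples. The authors deposited 1 table with a signal per gene symbol and library, a normalised read count that is never negative. The submitters' processing notes name FastQC and the rn6 build. Not given in the sources used here are the aligner, counter, annotation and strandedness, so reads shared between related or overlapping genes cannot be placed. In each library a smallest step recurred, taken as 1 read, and 97.5% to 98% of values above 0 were whole multiples of it (tolerance 0.05). Since the rest were fractions, no count test was run. Columns name genotypes and not single samples, and 0 columns were left unused. Every pair of libraries differed by more than sampling noise (lowest chi-square per gene 15.9).

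On the log2(value + 1) scale, genes with at least 1 in at least 3 libraries (normalised count) were tested with limma 3.58.1 in R 4.3.3 (trend, genotype only, 2-sided, Benjamini-Hochberg over 15386 genes, threshold 0.05), after a check on simulated data. An exact permutation of 3 against 3 libraries cannot go below 0.1. The members, the further lists, the test and the rule for named genes (all members, and up to 3 genes past the threshold with the lowest p per further list) were chosen with earlier results of these data known. Alternatives were quantile normalisation, equal totals, no trend, a robust fit, limma-voom after division by the step, no filter, a minimum of 10, a pseudocount of 0.1, a block for the library number, libraries left out and an adjusted p under 0.10.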

Additional observations from a re-analysis of the deposited data

How the results depend on the processing

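Over 560 alternatives of the 35 log2 fold changes, 461 kept their direction and side of the threshold, 66 kept the direction and lost the call, 9 gained one and 24 changed sign, all of the last in genes that did not pass. The cause was not tested where a value moved. Quantile normalisation left 2 of the 35 higher, 2 general genes and 1 lymphatic gene called. With equal library totals 2 of the 35 and 449 of all genes were higher, and the median of all genes shifted by less than 0.1. Limma without the trend called 952 genes, 301 of them higher, and 6 of the 35 (2 higher, 4 lower; 1 general, 1 lymphatic). Limma-voom called 1 lymphatic gene. Without the filter, which adds entries near 0 to the fit and the adjustment, 451 genes passed (190 higher, 261 lower) and 3 of the 35 (1 higher, 2 lower), with 0 general, 1 capillary, 1 arterial or venous and 1 lymphatic. Without both shallow libraries numbered 2, 553 genes passed (268 higher, 285 lower) and 6 of the 35, with 3 lower, 2 general, 0 arterial or venous and 1 lymphatic. At an adjusted p under 0.10 the counts were 2853 (1286 higher, 1567 lower), 7 of the 35 higher and 5 capillary. The robust fit, the minimum of 10 and the pseudocount of 0.1 moved no count by over 1.5 times.

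The labels state no pairing by library number. Deviations of libraries with the same number correlated at -0.1, 0.07 and -0.07, and those with different numbers at -0.05 to 0.12. With 3 libraries per genotype this cannot settle whether libraries with the same number were handled together. With the number as a replicate block, 899 genes passed (334 higher, 565 lower) and 6 of the 35 (2 higher, 4 lower), with 1 general and 1 lymphatic.

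Leaving out 1 library gave 407 to 1834 genes (135 to 930 higher, 272 to 920 lower), the fewest without Ahr-KO library 2 and the most without WT library 2. Of the 35, 5 to 12 passed (2 to 4 higher, 3 to 8 lower), with 0 to 5 general, 2 to 3 capillary, 2 to 3 arterial or venous and 1 to 3 lymphatic genes.

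Sign changes of log2 fold changes, none of them in genes that passed, were as follows. After quantile normalisation Egfl7 was at -0.068, Esam at -0.0054, Selp at 0.066 and Ahr at -0.012. With equal library totals Egfl7 was at -0.047, Esam at -0.016 and Ahr at -0.012. Without both libraries numbered 2 Egfl7 was at -0.18, Esam at -0.073, Apln at -0.041 and Mmrn2 at 0.0065. With 1 library left out the values ran from -0.10 to 0.20 for Egfl7, -0.058 to 0.16 for Esam, -0.28 to 0.13 for Selp, -1.83 to 0.54 for Robo4, -0.14 to 0.028 for Ecscr, -0.14 to 0.42 for Apln, -0.092 to 0.34 for Bmx, -0.17 to 0.37 for Lyve1 and -0.061 to 0.29 for Ahr. The values of Robo4, Prox1 and Sostdc1 came from few reads in a library. For Robo4, reads may also stand in the joint entry.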
